A study of Mus musculus with 31 samples.

Results

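The 9 genes described here, Gpnmb, Trem2, Tyrobp, Spp1, Lgals3, Apoe, Fabp5, Cd9 and Cd63, are genes that phagocytes which take up dead cells and lipid are known to express. The genes were chosen by name, with earlier results of these data known. They are 9 of the 22609 gene symbols in the read count files of masseter muscle (MM), and all 9 had enough reads to be tested in every comparison. The study injected the left MM of adult male C57BL/6J mice with complete Freund's adjuvant (CFA), an emulsion that provokes inflammation, with collagenase type 2 (Col), an enzyme preparation that digests connective tissue, or with vehicle (phosphate-buffered saline). Bulk poly(A) RNA was sequenced from 31 mice, 1 library per mouse. The CFA experiment had 3 vehicle mice, 3 mice at 1d and 3 mice at 5d post-CFA. The Col experiment had 3 vehicle mice, 4 mice in each of the 0.2U groups that the labels call 1C and RPC, and 4, 3 and 4 mice in the 10U groups that the labels call 2d, 6d and 12d post-Col. The labels do not give the day of the 1C and RPC groups or of the vehicle mice, and the methods give days 1 and 5 for the 0.2U dose without saying which name is which day. All mice were wild type and carried no reporter or deletion. The 5 Col groups were compared with the same 3 Col vehicle mice and both CFA groups with the same 3 CFA vehicle mice, so these comparisons are not independent of each other.

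A macrophage that clears dying cells has to handle the lipid of their membranes. TREM2 is a surface receptor for lipids and apolipoproteins, and it signals through TYROBP (DAP12), an adaptor that several myeloid receptors share. GPNMB, SPP1 (osteopontin) and LGALS3 (galectin-3) are made in quantity by such cells, APOE and FABP5 carry lipid outside and inside the cell, and CD9 and CD63 are tetraspanins of the plasma membrane and of lysosomes. None of the 9 genes is restricted to macrophages: Cd9 is also made by epithelia, Fabp5 by keratinocytes, Spp1 by bone and Gpnmb by melanocytes and osteoclasts.

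The libraries held between 14843778 and 29076671 reads assigned to genes. The 11 libraries of the 10U groups had 0.559 to 0.703% of reads in the class of ambiguous reads, against 0.125 to 0.26% in the Col vehicle and 0.2U libraries, so a difference in how the 10U libraries were made or counted cannot be told apart from the 10U treatment in any comparison with vehicle. Markers of the salivary gland, which lies next to the MM, ranged from a mean log2 CPM (counts scaled by library depth) of -2.9 to 10.8 over the mice and their summed level reached 296300 CPM in 1 mouse. In the Col vehicle group this score was -0.30, 8.26 and 9.98, and in the 6d group -2.9 to -1.88. Muscle fibre markers were present in every library. In bulk tissue, fewer cells of a type and less RNA per cell cannot be told apart.

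Per base of gene length, the genes covered a wide range of levels. The median over 31 mice was 138 RPKM (reads scaled by gene length and library depth) for Apoe, 82.9 for Spp1, 51.8 for Cd63, 42.0 for Cd9, 37.0 for Tyrobp and 17.8 for Lgals3. Gpnmb, Fabp5 and Trem2 were lower, with medians of 2.65, 2.38 and 0.548 RPKM. The length used, the union of exons, was 4946 bases for Trem2 and 3567 for Fabp5. Their protein-coding transcripts hold only 1140 and 987 windows of 50 bases, so RPKM understates both genes. For Gpnmb the length was 4611 bases, with 4561 windows. The order of Gpnmb, Fabp5 and Trem2 therefore depends on the length used. Reads of Fabp5 were also counted in part only, as described below. The order by spread was different. The highest mouse had 103 times the CPM of the lowest mouse for Trem2, 77.4 times for Spp1, 67.0 times for Gpnmb, 35.8 times for Fabp5, 35.3 times for Lgals3, 32.0 times for Tyrobp and 22.1 times for Apoe, but only 7.36 times for Cd63 and 3.22 times for Cd9. The mean was highest in the 6d post-Col (10U) group for 5 genes, Gpnmb, Trem2, Tyrobp, Lgals3 and Apoe. It was highest in the 2d group for Spp1 and Cd63, in the 1C group for Fabp5 and at 5d post-CFA for Cd9.

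**Figure D1:**
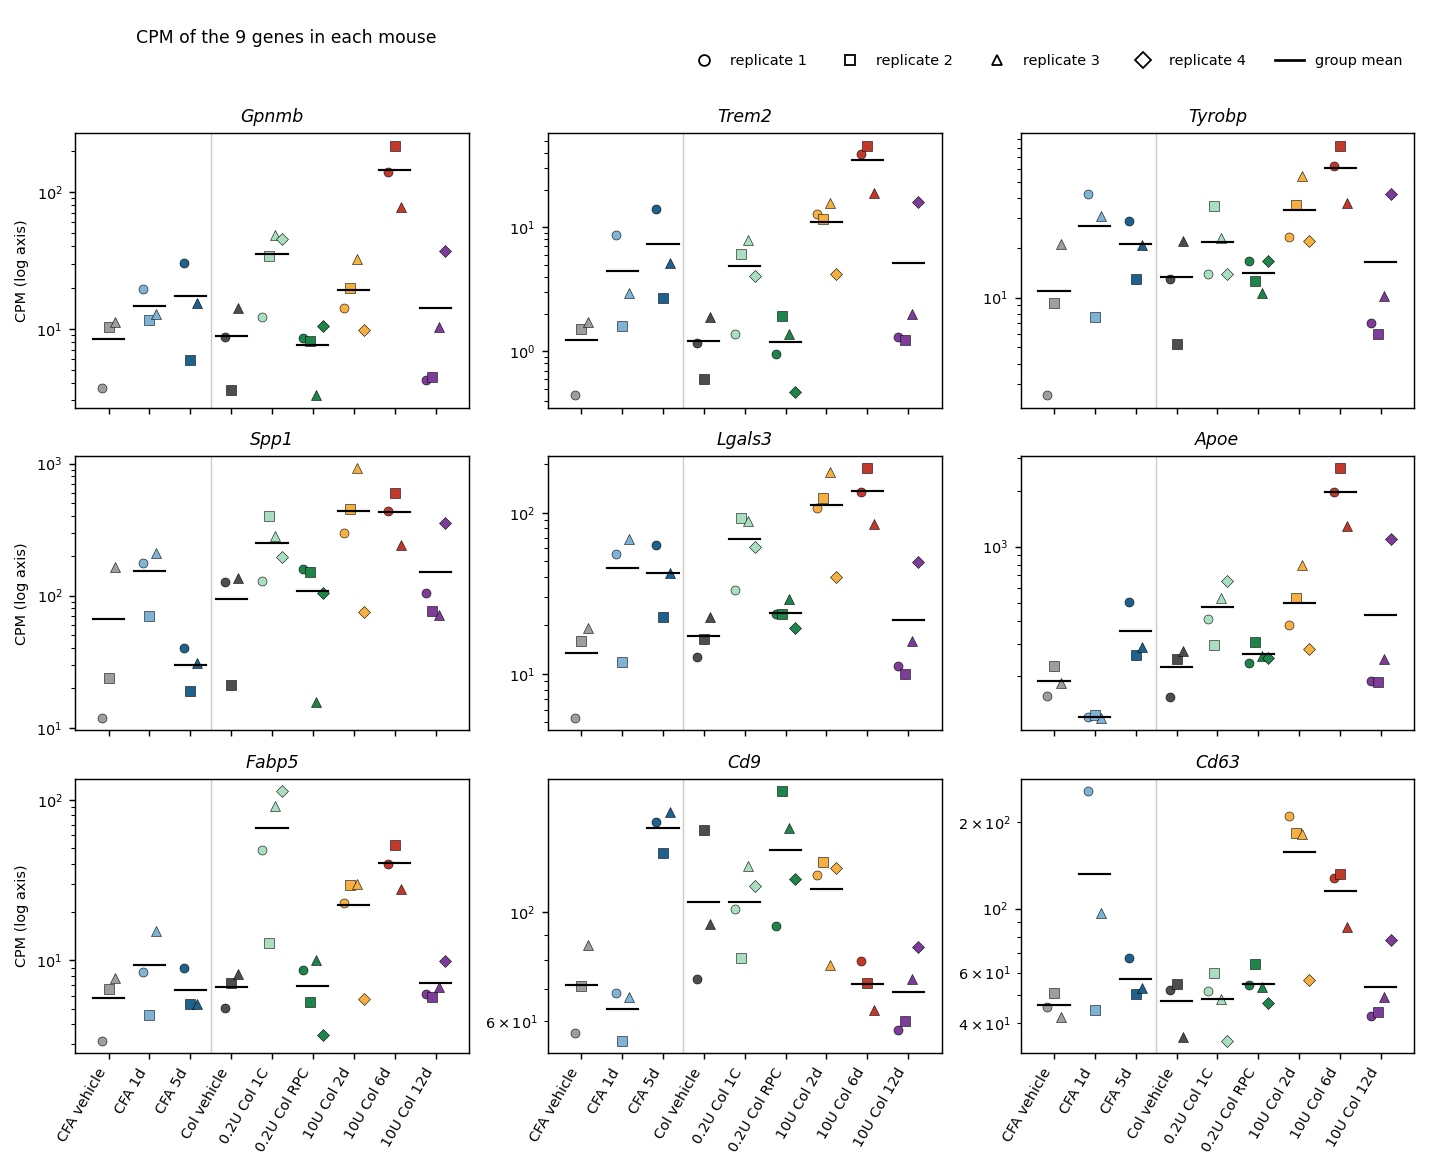
Level of each gene in each of the 31 mice, with CPM on a log axis, the 9 groups along the horizontal axis, 1 point per mouse and a bar at the group mean. The 3 mice at 6d post-Col (10U) lie above every other mouse for Gpnmb, Trem2 and Apoe, while Cd9 has its highest group mean at 5d post-CFA. The share of all genes with such a gap was not counted.

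At 6d post-Col (10U), 8 of the 9 genes were higher than in the Col vehicle group, and for these 8 the mice of both groups did not overlap. Of all 14281 genes tested, 14% were called higher, 13.3% were called lower and 26% had all 6d mice above all vehicle mice. The median log2 fold change of the 9 genes was 2.52, against 0.01 for all genes. A gene was called where edgeR's quasi-likelihood test gave a Benjamini-Hochberg adjusted p under 0.05. Trem2 had the largest change and Cd9 was the gene that was not called.

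The receptor and its adaptor rose by unequal amounts. Trem2 (chr17:48485726-48493472 in build mm9) had 1.18, 0.599 and 1.88 CPM in the vehicle mice and 39.3, 45.6 and 18.96 CPM in the 6d mice. Its log2 fold change was 4.75 (SE 0.49, 95% interval 3.61 to 5.89, adjusted p = 0.00223), with a rank of 95 from the top among the genes tested. Tyrobp (chr7:31198807-31202596) had 12.9, 5.25 and 22.02 CPM in the vehicle mice and 61.8, 82.6 and 37.4 CPM at 6d. The vehicle mice differed among themselves by more for Tyrobp than for Trem2, and its log2 fold change was 2.13 (SE 0.51, adjusted p = 0.0237). Gpnmb (chr6:48986517-49020928), a transmembrane glycoprotein of lysosomes and melanosomes, had 8.72, 3.59 and 14.2 CPM in the vehicle mice and 139, 219 and 77.5 CPM at 6d. This is a log2 fold change of 3.98 (SE 0.58, 95% interval 2.64 to 5.31, adjusted p = 0.00545) with a rank of 143 from the top. For Gpnmb, Trem2 and Apoe the lowest 6d mouse was above every mouse of the other 8 groups. The share of all genes for which this holds was not counted.

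Of the secreted proteins, Lgals3, a lectin that binds galactosides and damaged lysosomes, separated from vehicle further than Spp1, a matrix phosphoprotein that binds integrins and CD44. Lgals3 (chr14:47987426-48005835) had 12.8, 16.4 and 22.5 CPM in the vehicle mice and 134, 188 and 85.7 CPM at 6d, with a log2 fold change of 2.95 (SE 0.34, adjusted p = 0.00292). Spp1 (chr5:104864137-104870069) had 126, 20.9 and 137 CPM in the vehicle mice and 440, 596 and 244 CPM at 6d. The vehicle mice differed widely for Spp1, and the log2 fold change of 2.12 had a wide interval (SE 0.67, 95% interval 0.57 to 3.67, adjusted p = 0.0499). Bone markers had mean log2 CPM of -0.56 to 4.05 in the vehicle mice and of -1.61 to -0.12 at 6d, and the part of bone RNA in Spp1 was not tested.

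Both lipid carriers rose. Apoe (chr7:20281458-20284515, minus strand), the apolipoprotein that TREM2 and the low density lipoprotein receptor family bind, had 154, 247 and 273 CPM in the vehicle mice and 1969, 2640 and 1295 CPM at 6d. Its log2 fold change was 3.10 (SE 0.39, 95% interval 2.21 to 4, adjusted p = 0.00354), and its 6d mean of 994 RPKM was above the 6d means of the other 8 genes, of which Spp1 had the highest at 259 RPKM. Fabp5 (chr3:10012548-10016607), a cytosolic fatty acid carrier, had 5.06, 7.25 and 8.24 CPM in the vehicle mice and 40.0, 52.6 and 27.8 CPM at 6d. The vehicle mice were close together, and the log2 fold change was 2.52 (SE 0.29, adjusted p = 0.00292). Of 987 windows of 50 bases in Fabp5 transcripts, 409 (41.4%) occur elsewhere in the genome, for example in the pseudogene Gm6166, so its reads were counted in part only.

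The tetraspanins behaved apart from each other. Cd63 (chr10:128345975-128349872), a tetraspanin of late endosomes and lysosomes, had 52.2, 54.9 and 35.9 CPM in the vehicle mice and 127, 132 and 86.6 CPM at 6d, a log2 fold change of 1.25 (SE 0.23, adjusted p = 0.0105). Of its 980 windows, 387 (39.5%) occur at 1 other place in the genome. Cd9 (chr6:125410284-125444809, minus strand), a tetraspanin of the cell surface, had 73.2, 147 and 94.7 CPM in the vehicle mice and 79.8, 71.9 and 63.2 CPM at 6d. These values overlap, with a log2 fold change of -0.56 (SE 0.25, 95% interval -1.14 to 0.02, adjusted p = 0.124).

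**Figure D2:**
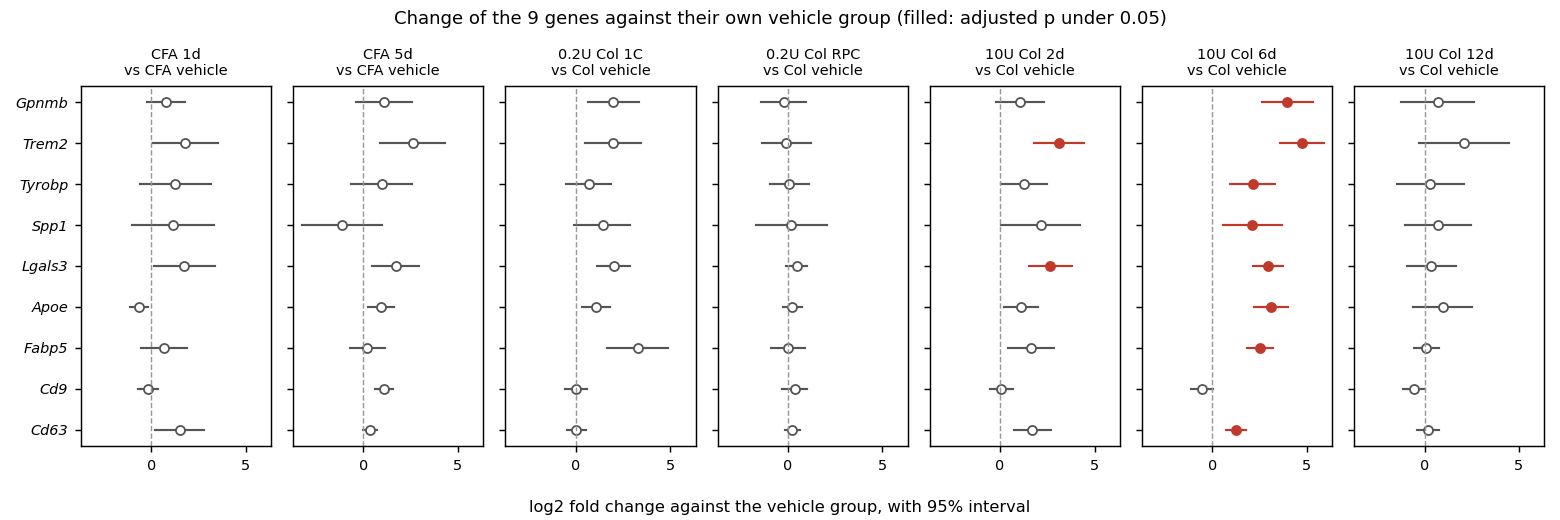
Log2 fold change of each of the 9 genes, with its 95% interval, for each treated group against its own vehicle group; filled points are called at an adjusted p under 0.05. At 6d post-Col (10U), 8 genes are filled and to the right of 0, and the interval of Cd9 reaches from -1.14 to 0.02.

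Calls at 6d depended in part on single mice. Counts with a mouse left out, here and below, come without the share of all genes called in the same fit. With each of the 6 mice left out in turn, 6 to 8 genes were called, and Gpnmb, Trem2, Lgals3, Apoe, Fabp5 and Cd63 were called each time. Tyrobp lost its call without Col vehicle replicate 1 (adjusted p = 0.0681), 6d replicate 1 (0.0737) or 6d replicate 2 (0.0908). Spp1 lost it without Col vehicle replicate 1 (adjusted p = 0.0911), 6d replicate 1 (0.12), 6d replicate 2 (0.151) or 6d replicate 3 (0.0694). With the salivary gland score as a covariate, an alternative added after the data had been seen, 0 of the 9 genes and 20 genes in all were called. The scores of both groups did not overlap, so that fit separates them from the treatment only through the spread within groups. In that fit the 8 genes kept positive log2 fold changes of 1.07 (Cd63) to 4.53 (Trem2), and Cd9 was at 0.13.

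Markers of macrophages rose at 6d, as 8 of the 9 genes did. Of 12 markers, 11 were higher at 6d, and the exception was Cd163 with a log2 fold change of 0.09 (adjusted p = 0.902). The median log2 fold change of the 12 was 2.84. C1qa, a complement subunit made by resident macrophages, had a mean of 266 CPM against 37.1 CPM (log2 fold change 2.80, adjusted p = 0.004), Cd68 87.4 against 8.002 CPM (3.38, adjusted p = 0.0138) and Csf1r, the receptor for the macrophage growth factor, 130 against 41.5 CPM (1.61, adjusted p = 0.0234). Averaged over the 12 markers, log2 CPM lay between 6.00 and 6.94 at 6d and between 2.89 and 4.08 in vehicle mice. None of the 12 was at 0 in any library. Satellite cell and regenerating fibre markers were at 7.14 to 7.71 against 3.09 to 4.10, muscle fibre markers at 12.05 to 12.87 against 13.53 to 13.92 and neutrophil markers at -1.40 to 0.18 against -0.11 to 6.49. Of the other marker lists, 4 of 7 bone, 4 of 8 adipocyte, 7 of 9 keratinocyte, 6 of 8 Schwann cell, 4 of 4 salivary gland, 4 of 6 neutrophil and 2 of 6 muscle fibre genes tested were lower and none of them higher, where 13.3% of all genes were called lower. Of the leukocyte markers 2 of 6 were higher, of the fibroblast markers 1 of 6, and of the endothelial markers 1 of 6 was lower. Osteoclast and chondrocyte markers had 1 gene called in each direction, and the 1 melanocyte marker tested was not called. The part of these other cells in the 9 genes was not tested.

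Set against the macrophage score of the same mouse, the genes differed. The level of Tyrobp minus that score, on the log2 CPM scale, had a median of 0.04 in the Col vehicle group and of -0.57 at 6d. For Gpnmb the median was -0.52 in vehicle mice and 0.76 at 6d, and for Trem2 -3.39 and -1.43. All 3 mice at 6d were above all 3 vehicle mice in this difference for both genes. Cd9 moved the other way, from a median of 2.54 to one of -0.04, and Cd63 from 2.05 to 0.44. The groups overlapped for Lgals3 (medians 0.41 in vehicle mice and 0.62 at 6d), Apoe (4.01 and 4.43), Fabp5 (-1.04 and -1.2) and Spp1 (3.01 and 2.28). In the 1C group, Gpnmb had a median of 0.55 (-0.31 to 1.34). The share of all genes that lie apart in this difference was not counted. These differences rest on the same libraries as the fold changes and carry no test.

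**Figure D3:**
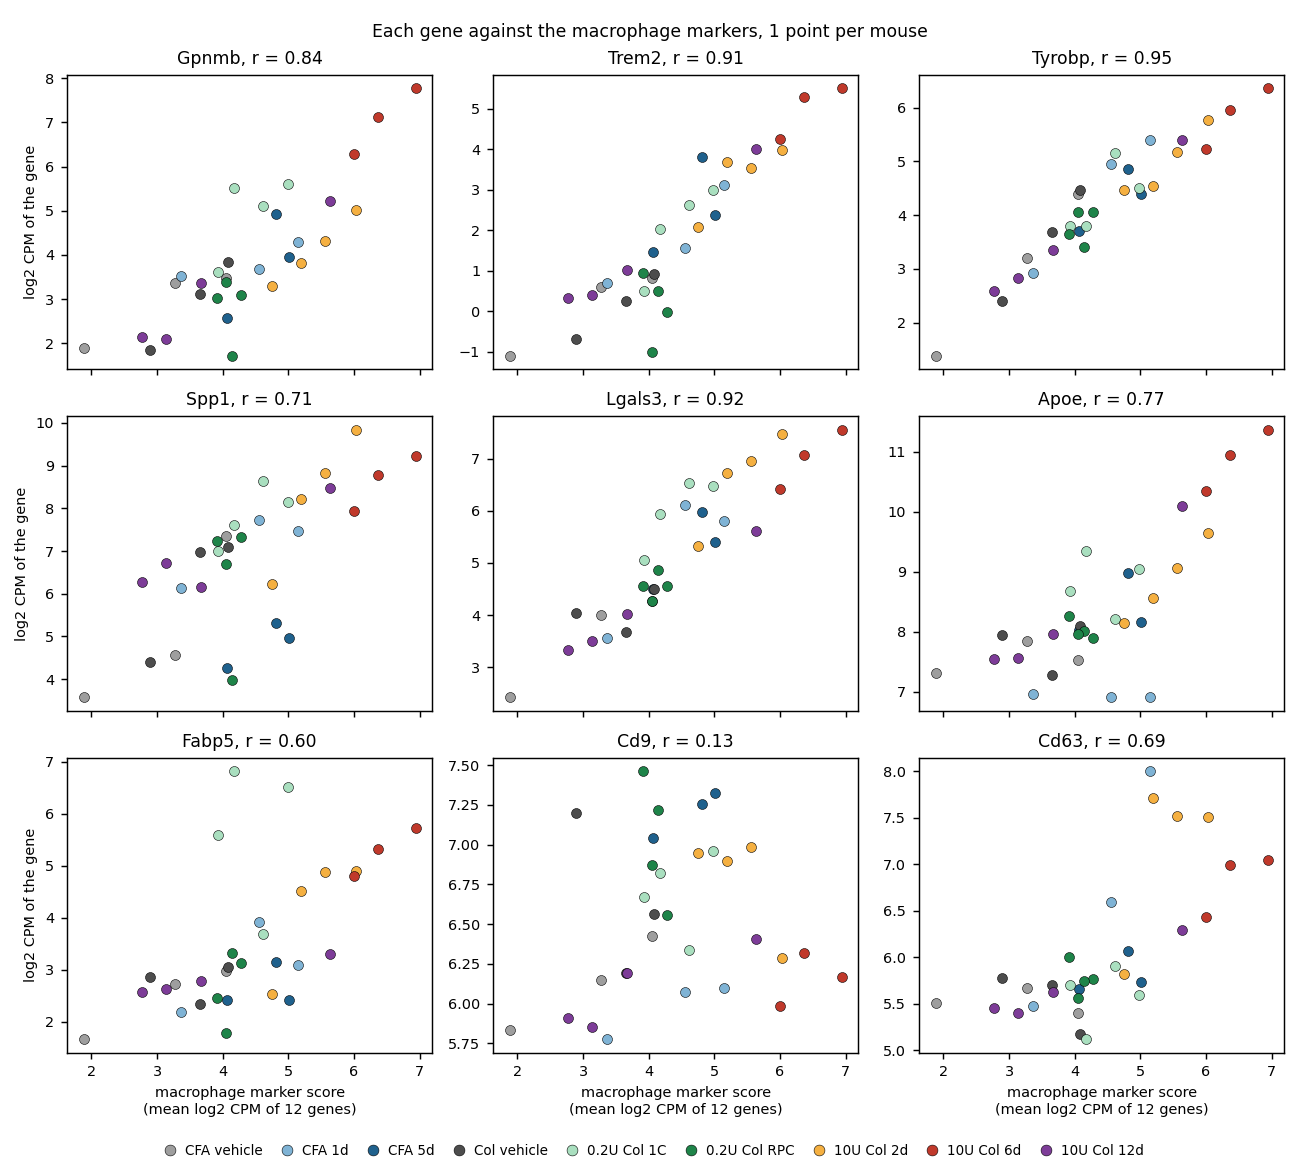
Level of each gene in log2 CPM (vertical axis) against the mean log2 CPM of 12 macrophage markers (horizontal axis), 1 point per mouse, coloured by group. Tyrobp follows the score over its whole range (r = 0.95 over 31 mice), and Cd9 does not (r = 0.13).

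Over the 31 mice, Pearson's r with the macrophage score was 0.95 for Tyrobp, 0.92 for Lgals3, 0.91 for Trem2, 0.84 for Gpnmb, 0.77 for Apoe, 0.71 for Spp1, 0.69 for Cd63, 0.60 for Fabp5 and 0.13 for Cd9. After each group's mean was taken out, r was 0.95 for Tyrobp, 0.88 for Lgals3, 0.86 for Trem2, 0.82 for Gpnmb, 0.72 for Spp1, 0.66 for Apoe, 0.52 for Cd63, 0.44 for Fabp5 and 0.23 for Cd9. Other lists had a higher r for some genes. Over the 31 mice, r with leukocyte markers was 0.96 for Tyrobp and 0.75 for Spp1. Fibroblast markers had 0.74 with Spp1 and chondrocyte markers 0.63 with Fabp5. Satellite cell and regenerating fibre markers had 0.77 with Apoe, as the macrophage score did, and 0.48 with Apoe within groups. Within groups, Spp1 had 0.82 with neutrophil, 0.78 with fibroblast and 0.77 with leukocyte markers. For Gpnmb, Trem2, Lgals3 and Cd63 no other list had a higher r in either setting. These are descriptions: the points are mice of 9 treatment groups, and both values of a point come from 1 library and share its depth.

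Promoters were searched for motifs because 8 of the genes rose together at 6d, and those that hold a match are shown, whatever the size of the gene's change. RefSeq (build GRCm38.p6) gave an entry for 7 of the 9 genes, of 300 bases from 250 before to 50 after the start of the transcript. The motifs searched on both strands were TGANTCA (a pattern that takes in the AP-1 site), AGGAAGT with its reverse complement ACTTCCT (an ETS site) and CACGTG (the E-box of MITF and TFE factors). The AP-1 site has C or G at the N, so the pattern is wider than that site. The Gpnmb match is TGACTCA, which is the site, and the Trem2 match is TGAATCA, which is not. TGANTCA occurs in 2565 of 32851 promoters (7.81%), AGGAAGT in 3072 (9.35%) and CACGTG in 2349 (7.15%), and of the 10 entries of the genes 2 hold the first, 1 the second and 0 the third. The entries with a match are printed 5′ to 3′ with the matching letters in capitals. They are those of Gpnmb (chr6:49036268-49036567, plus strand, match at 9 from the start), Trem2 (chr17:48346151-48346450, plus strand, match at -9) and Spp1 (chr5:104434861-104435160, plus strand, match at -112).
Gpnmb: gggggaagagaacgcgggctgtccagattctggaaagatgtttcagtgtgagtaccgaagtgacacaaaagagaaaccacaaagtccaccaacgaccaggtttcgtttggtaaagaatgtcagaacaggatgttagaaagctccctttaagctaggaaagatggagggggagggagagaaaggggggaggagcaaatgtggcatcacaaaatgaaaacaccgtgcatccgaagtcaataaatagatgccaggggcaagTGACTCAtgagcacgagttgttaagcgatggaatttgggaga
Trem2: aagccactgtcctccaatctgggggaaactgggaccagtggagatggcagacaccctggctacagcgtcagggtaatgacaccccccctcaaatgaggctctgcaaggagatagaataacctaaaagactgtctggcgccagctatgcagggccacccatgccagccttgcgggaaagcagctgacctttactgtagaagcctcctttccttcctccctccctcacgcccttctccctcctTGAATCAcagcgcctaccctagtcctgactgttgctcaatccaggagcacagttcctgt
Spp1: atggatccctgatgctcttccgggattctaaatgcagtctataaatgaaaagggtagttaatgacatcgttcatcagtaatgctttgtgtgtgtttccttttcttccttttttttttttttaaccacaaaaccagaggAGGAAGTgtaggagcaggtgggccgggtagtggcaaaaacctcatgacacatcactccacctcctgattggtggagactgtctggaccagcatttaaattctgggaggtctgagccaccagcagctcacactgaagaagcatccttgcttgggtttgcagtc
A match is a description of letters and no evidence of binding.

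At 2d post-Col (10U), 2 of the 9 genes were called, Trem2 and Lgals3, both higher, where 1.14% of 14373 genes were called higher. Trem2 had 12.9, 11.6, 15.7 and 4.24 CPM, and its log2 fold change against vehicle was 3.11 (SE 0.58, 95% interval 1.78 to 4.44, adjusted p = 0.0483). Lgals3 had 106, 124, 178 and 39.8 CPM, and its log2 fold change was 2.65 (SE 0.50, adjusted p = 0.0483). Replicate 4 was the lowest of the 4 mice for 8 of the 9 genes and had the lowest macrophage score, 4.75. All 4 mice were above all vehicle mice for Apoe and Cd63 too, which holds for 13.4% of all genes. Apoe had 376, 532, 797 and 282 CPM (log2 fold change 1.11, SE 0.40, adjusted p = 0.105). Cd63 had 210, 184, 181 and 56.6 CPM (1.69, SE 0.43, adjusted p = 0.0604). Spp1 reached 919 CPM in replicate 3, its highest value in any mouse, but replicate 4 with 75.0 CPM was below 2 of the vehicle mice.

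The calls at 2d stood close to the threshold. Without Col vehicle replicates 1 or 2 or 2d replicates 1, 2 or 3, 0 genes were called, with adjusted p of 0.113 to 0.194 for Trem2 and Lgals3. Without Col vehicle replicate 3 only Trem2 was called (adjusted p = 0.0483; 0.0506 for Lgals3). Without 2d replicate 4, 6 genes were called, and DESeq2 with all mice also called 6, Trem2, Spp1, Lgals3, Apoe, Fabp5 and Cd63. The shares of all genes called in these settings are not given here. With the salivary gland score as covariate 0 were called, at log2 fold changes of 3.09 for Trem2 and 2.58 for Lgals3. The salivary score was -0.59 in replicate 3 and 8.43 to 9.27 in the other mice.

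From 2d to 6d post-Col (10U), Gpnmb and Apoe rose further. Gpnmb had 14.2, 20.01, 32.3 and 9.77 CPM at 2d, below all 6d mice (log2 fold change 2.94, SE 0.47, adjusted p = 0.0137). Apoe rose by 2.00 (SE 0.42, adjusted p = 0.0328) with no overlap. Of 14513 genes, 4.68% were called higher and 11.6% had all 6d mice above all 2d mice. Trem2 did not overlap either, with a log2 fold change of 1.66 (SE 0.44, adjusted p = 0.0581). Tyrobp, Spp1, Lgals3, Fabp5 and Cd63 had values at 6d within or overlapping those at 2d. The number of calls was 0 without 2d replicate 2, 6d replicate 1 or 6d replicate 2 and 1 (Gpnmb) without 2d replicate 1 or 6d replicate 3. It was 4 without 2d replicate 3, with Trem2 higher and Cd9 lower (-0.73, adjusted p = 0.0302) added, and 4 without 2d replicate 4, with Trem2 higher and Cd63 lower (-0.72, adjusted p = 0.0179) added. With the salivary score as covariate it was 0.

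At 12d post-Col (10U), 0 of the 9 genes were called against vehicle by edgeR, 0 had an unadjusted p under 0.05 and DESeq2 called 0, where edgeR called 1.23% of 14176 genes and 17.4% had an unadjusted p under 0.05. No gene had groups that did not overlap, which 9.16% of all genes did upward and 7.82% downward. One mouse set the spread. Replicate 4 was the highest of its group for 9 of 9 genes, with 37.4 CPM of Gpnmb against 4.23, 4.403 and 10.3 in the other 3 mice, 16.02 CPM of Trem2 against 1.30, 1.22 and 1.99, and 1098 CPM of Apoe against 189, 186 and 249. Its macrophage score was 5.64 against 2.78 to 3.67, its bone score 4.56 against 2.23 to 2.44, and its regenerating fibre score 6.17, the highest of the group. The other 3 mice were within or below the range of the vehicle mice for Tyrobp, Lgals3 and Spp1.

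Against the 6d group, 5 of the 9 genes were lower at 12d, where 13% of 14344 genes were called lower. Fabp5, with 6.21, 5.93, 6.84 and 9.86 CPM at 12d, fell by 2.45 on the log2 scale (SE 0.25, adjusted p = 0.0059). Gpnmb fell by 3.34 (SE 0.79, adjusted p = 0.0246) and Lgals3 by 2.63 (SE 0.57, adjusted p = 0.0199). Apoe fell by 2.18 (SE 0.68, adjusted p = 0.0489) and Cd63 by 1.09 (SE 0.24, adjusted p = 0.0214). All 12d mice were below all 6d mice for these 5 genes and for Trem2 (log2 fold change -2.72, SE 0.89, adjusted p = 0.0561), which holds for 18.7% of all genes. Without 12d replicate 4, 8 genes were called, and Trem2 had a log2 fold change of -4.51 (adjusted p = 0.000347). Without 6d replicates 1 or 2 or 12d replicates 1, 2 or 3, only Fabp5 remained. With the salivary score as covariate 0 were called and Trem2 was at 0.31. Both groups are 10U libraries, and their shares of ambiguous reads overlapped.

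After CFA, no gene was called against the CFA vehicle mice. At 1d post-CFA, edgeR called 0 of the 9 genes, of which 4 had an unadjusted p under 0.05, and DESeq2 called 0. Over all 13944 genes, 0% were called and 4.22% had an unadjusted p under 0.05. Gpnmb had 19.6, 11.5 and 12.8 CPM, all above the vehicle mice with 3.67, 10.3 and 11.2 CPM (log2 fold change 0.79, SE 0.44, adjusted p = 0.924). Apoe had 120, 125 and 119 CPM, all below the vehicle mice with 158, 229 and 184 CPM (-0.65, SE 0.21, adjusted p = 0.924). Such gaps occurred in 3.05% of genes upward and 3.13% downward. The 3 mice at 1d differed widely, and replicate 2 was the lowest for 8 of the 9 genes, with 1.60 CPM of Trem2 against 8.71 and 2.95 CPM and 44.4 CPM of Cd63 against 255.6 and 96.9 CPM. In the vehicle group replicate 1 was the lowest for 8 genes and replicate 3 the highest for 7.

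At 5d post-CFA, edgeR again called 0 of the 9 genes, where 1.11% of 14026 genes were called. By edgeR, 4 of the 9 had an unadjusted p under 0.05, as 14% of all genes had. DESeq2 called 4 of the 9, and the share of all genes that it called is not given here. All 3 mice were above all vehicle mice for Trem2, Lgals3, Apoe and Cd9, which holds for 12.8% of all genes. Trem2 had 14, 2.71 and 5.18 CPM against 0.444, 1.505 and 1.73 CPM (log2 fold change 2.61, SE 0.73, 95% interval 0.89 to 4.33, adjusted p = 0.155). Lgals3 had 62.8, 22.5 and 42.1 CPM against 5.33, 15.9 and 19.1 CPM (1.70, SE 0.54, adjusted p = 0.2). Apoe had 506, 260 and 287 CPM (0.93, SE 0.30, adjusted p = 0.206). Cd9 had 153, 132 and 160 CPM against 56.9, 71.0 and 85.9 CPM (1.10, SE 0.20, 95% interval 0.62 to 1.58, adjusted p = 0.0599). Without CFA vehicle replicate 3, Tyrobp, Trem2 (3, adjusted p = 0.0278), Lgals3 (2.09, adjusted p = 0.0238) and Cd9 (1.29, adjusted p = 0.00169) were called. That vehicle mouse had a bone score of 4.39, against -2.35 and -0.13 in the others. Its salivary gland score was 6.86, against -0.94 and -0.39, and its macrophage score 4.05, against 1.88 and 3.27.

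Between 1d and 5d post-CFA, Cd9 and Apoe rose and Spp1 fell. In all, 4.85% of 14046 genes were called higher at 5d and 0.99% lower. Cd9 had 68.5, 54.8 and 67.4 CPM at 1d and rose by 1.26 (SE 0.17, adjusted p = 0.00735), and Apoe rose by 1.57 (SE 0.29, adjusted p = 0.0209). Spp1 had 176, 70.3 and 212 CPM at 1d and 40.0, 19.1 and 31.1 CPM at 5d, and fell by 2.30 (SE 0.45, adjusted p = 0.0277). The call of Spp1 was lost without CFA 1d replicate 3 or any of the CFA 5d mice (adjusted p = 0.0678 to 0.124), and that of Apoe without CFA 1d replicate 3 (0.0751) or CFA 5d replicate 3 (0.052). The salivary gland score was 9.31 to 10.1 at 5d, against -0.92 to 5.18 at 1d, and vehicle mice had -0.94 to 6.86. With that score as covariate, Cd9 had a log2 fold change of 1.09 from 1d to 5d (adjusted p = 0.155), and of the 9 genes only Cd63 was called (-3.70, adjusted p = 0.0131).

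In the 0.2U groups the 9 genes were not called by edgeR. In the 1C group edgeR called 0 of the 9, of which 5 had an unadjusted p under 0.05, and DESeq2 called 4, Gpnmb, Lgals3, Apoe and Fabp5. By edgeR, 0% of all 14493 genes were called and 12.6% had an unadjusted p under 0.05. The share of all genes that DESeq2 called is not given here, so its 4 calls cannot be read against these shares. Fabp5 had 48.3, 12.8, 91.8 and 113 CPM, all above the vehicle mice, and 3 of these values were above or within the 6d range of 27.8 to 52.6 CPM (log2 fold change 3.29, SE 0.70, 95% interval 1.67 to 4.9, adjusted p = 0.246). Lgals3 had 33.1, 92.8, 88.9 and 61.6 CPM (2.01, SE 0.39, adjusted p = 0.246). Apoe had 409, 296, 528 and 652 CPM (1.08, SE 0.33, adjusted p = 0.28). The groups did not overlap for these 3 genes, which holds for 4.22% of all genes. Replicate 2 was the lowest of the 1C mice for Fabp5, and without it Fabp5 was called (3.65, adjusted p = 0.00596).

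Other cell types moved with Fabp5 in the 1C group. Chondrocyte markers were at a mean log2 CPM of 2.18 to 3.72 in the 1C mice and of -2.96 to -0.88 in the vehicle mice. Keratinocyte markers, among them Krt5 and Krt14 of the basal layer, were at 3.75 to 5.82 against 1.74 to 3.50, with no marker at 0 in the 1C mice. The Fabp5 level minus the macrophage score had a median of 1.60 in the 1C group and of -1.04 in the vehicle group, with replicate 2 at -0.94. The part of these cell types in Fabp5 was not tested. In the RPC group edgeR called 0 of the 9 genes, 0 had an unadjusted p under 0.05, DESeq2 called 0 and 0 had groups that did not overlap. Of all 14269 genes 0% were called and 13.5% had an unadjusted p under 0.05, and 4.79% lay apart upward and 7.21% downward. Gpnmb was 3.27 to 10.4 CPM, Trem2 0.471 to 1.91 CPM and Fabp5 3.44 to 9.98 CPM in the 4 RPC mice.

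Whether 10U Col and CFA moved the genes by different amounts was tested as an interaction, in which each effect is taken against its own vehicle. For 10U Col at 2d against CFA at 1d, edgeR called 0 of the 9 genes, 1 (Apoe) had an unadjusted p under 0.05 and DESeq2 called that gene. By edgeR, 0.0946% of 14794 genes were called and 6.83% had an unadjusted p under 0.05. For 10U Col at 6d against CFA at 5d, 3 genes were called. Apoe differed by 2.16 (SE 0.49, adjusted p = 0.0202) and Fabp5 by 2.32 (SE 0.52, adjusted p = 0.02), both with the larger rise after Col. Cd9 differed by -1.67 (SE 0.35, adjusted p = 0.0151), with the higher level after CFA. Of 14892 genes 4.34% were called in the first direction and 6.96% in the second. Only Cd9 was called without 6d replicate 2, and 6 genes without CFA 5d replicate 1. Between the vehicle mice of both experiments none of the 9 genes was called (0 called by edgeR and by DESeq2, 0 with an unadjusted p under 0.05, 0.0426% of 14070 genes called and 2.32% with an unadjusted p under 0.05). The days after injection were not the same in both arms.

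The tetraspanins were also set against the other marker lists. Among 15 marker lists, the one with the highest r for Cd9 was the salivary gland (r = 0.84 over 31 mice and 0.67 within groups). The 3 mice at 5d post-CFA had 132 to 160 CPM of Cd9 and salivary scores of 9.31 to 10.1. In the Col vehicle group the mouse with 147 CPM of Cd9 had a score of 9.98 and the mouse with 73.2 CPM one of -0.30, and at 2d post-Col the lowest mouse (78.0 CPM) had -0.59. Cd63 had an inverse r of -0.78 with the adipocyte markers (-0.74 within groups). Its highest r among the 15 lists was that with the macrophage score, 0.69 (0.52 within groups). The part of gland or fat in either gene was not tested.

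**Figure D4:**
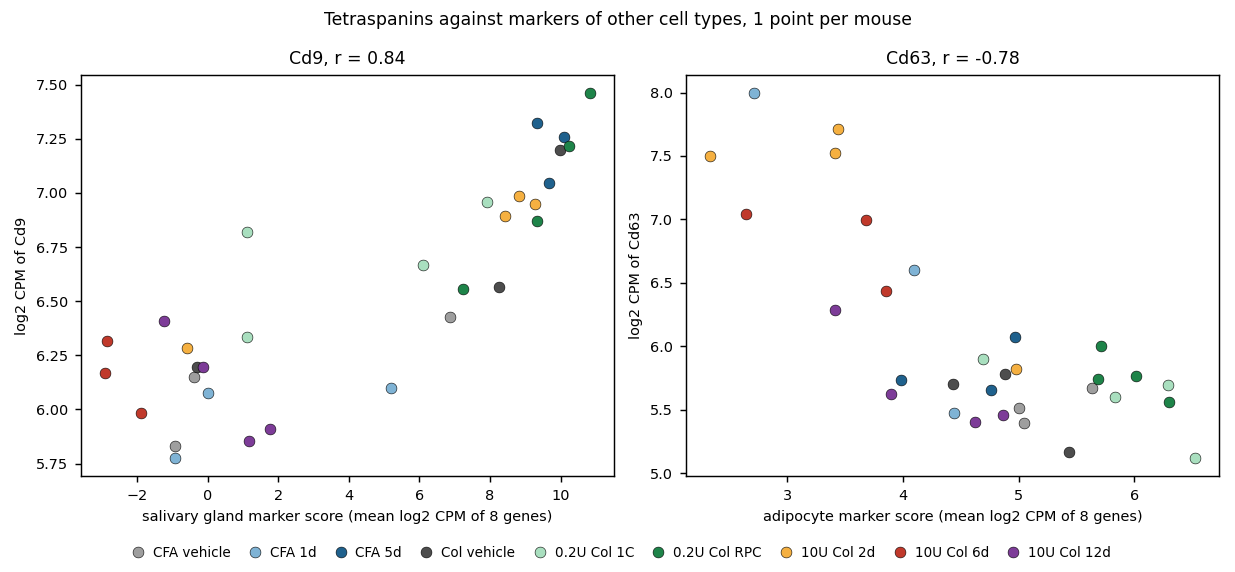
Cd9 against the salivary gland score (left) and Cd63 against the adipocyte score (right), in log2 CPM and mean log2 CPM, 1 point per mouse, coloured by group. Cd9 rises with the salivary score (r = 0.84) and Cd63 falls with the adipocyte score (r = -0.78).

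Partners of the 9 genes at 6d post-Col (10U) are given by lists written with the members, and each count is to be read against the 14% of all genes that were called higher and the 13.3% called lower. Of 16 tested genes of TREM2 and TYROBP signalling, 4 were higher and 0 lower, with a median log2 fold change of 0.90: Inpp5d, the phosphatase SHIP1 that limits this signalling (30.0 against 9.66 CPM, log2 fold change 1.59, adjusted p = 0.0319), the adaptors Lat2 (2.42, adjusted p = 0.00777) and Pik3ap1 (1.87, adjusted p = 0.0267), and Sirpb1a with 0.608 against 0.0964 CPM. Hcst, the adaptor DAP10, was at 0.530 against 0.377 CPM (adjusted p = 0.63) and Plcg2, the phospholipase downstream of TREM2, at 9.18 against 9.20 CPM (adjusted p = 0.954). Hcst lies 136 bp from Tyrobp on the opposite strand, and whether strand was used in counting is not given. At 2d only Lat2 of this list was called (log2 fold change 2.46, adjusted p = 0.0483).

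Of 19 genes of lipid uptake and cholesterol efflux tested, 4 were higher and 2 lower at 6d, with a median of 0.02, near that of all genes. The efflux pumps Abca1 (141 against 47.9 CPM, log2 fold change 1.53, adjusted p = 0.0108) and Abcg1 (1.56, adjusted p = 0.00981) were higher. So were Lipa, the lysosomal acid lipase (1.92, adjusted p = 0.00318), and Msr1, a scavenger receptor (3.80, adjusted p = 0.0172). The fatty acid transporter Cd36 (-0.84, adjusted p = 0.0344) and the lipase Lpl (-1.42, adjusted p = 0.0163), both also made by muscle and fat, were lower. Of 18 genes of phagocytosis and lysosome 8 were higher and 1 lower, with a median of 0.65. Mertk, a receptor for dying cells, rose (1.30, adjusted p = 0.0172) while Axl was at 105 against 85.5 CPM (adjusted p = 0.538), and the bridging ligands Gas6 and Pros1 were at adjusted p = 0.057 and 0.0505.

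Of 10 receptors and partners of the secreted proteins, 6 were higher and 0 lower. Cd44 (1.44, adjusted p = 0.0183), Itgav (0.82, adjusted p = 0.0276) and Itgb1 (0.94, adjusted p = 0.0198), which bind osteopontin, were among them, and Itgb3 was at 11.2 against 25.4 CPM (adjusted p = 0.238). Relatives of the genes moved less uniformly. Of 7 tested genes of the galectin list, which also holds the galectin-binding protein Lgals3bp, 3 were higher and 1 lower. The higher genes were Lgals1 (964 against 219 CPM, 2.12, adjusted p = 0.00311), Lgals8 (0.58, adjusted p = 0.0373) and Lgals3bp (1.35, adjusted p = 0.0183). The lower gene was the keratinocyte galectin Lgals7 (-3.21, adjusted p = 0.00443). Of 6 lipid binding relatives of Fabp5 tested 1 was higher and 0 lower, and the fat and heart carriers Fabp4 and Fabp3 were at adjusted p = 0.266 and 0.199. Of 7 other apolipoprotein genes only Apoc2 was called, at 4.08 against 0.112 CPM (adjusted p = 0.00911), and Apoc1 was at 2.49 against 3.87 CPM (adjusted p = 0.48). Of 19 other tetraspanins 4 were higher and 2 lower, with a median of -0.02. The leukocyte tetraspanin Cd53 rose (2.07, adjusted p = 0.0218), and Cd81, Cd82 and Cd37 had adjusted p of 0.225, 0.205 and 0.0832.

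At 12d the same lists were compared with 6d, where 13% of all genes were called lower and 13.4% higher. Of 15 genes of TREM2 and TYROBP signalling 6 were lower and 0 higher, and of 17 genes of phagocytosis and lysosome 6 were lower and 0 higher. Of 7 genes of the galectin list 3 were lower, led by Lgals1 (-2.09, adjusted p = 0.0129). Of 19 genes of lipid uptake and efflux 3 were lower and 2 higher. Cd36 (1.2, adjusted p = 0.0204) and Lpl (1.75, adjusted p = 0.0186) rose, and Lipa (-1.36, adjusted p = 0.0365), Lrp8, a receptor of APOE (-2.27, adjusted p = 0.0166), and Plin2, a protein of lipid droplets (-0.88, adjusted p = 0.0137), fell.

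Over the 31 mice, with the differences between groups included, Cd9 had lower correlations than the other genes. Pearson's r of log2 CPM was 0.89 between Trem2 and Lgals3 and between Tyrobp and Lgals3, and 0.86 between Gpnmb and Trem2 and between Trem2 and Tyrobp. Gpnmb and Apoe had r = 0.82. The lowest among the 8 genes without Cd9 was 0.34, between Fabp5 and Cd63. Cd9 had r from -0.20 (Spp1) to 0.20 (Lgals3) with the other genes. With group means taken out, Cd9 was less apart, with r of 0.34 with Apoe, 0.33 with Fabp5, 0.31 with Trem2 and 0.30 with Lgals3. Fabp5 then had r of 0.30 with Tyrobp, 0.31 with Spp1 and 0.35 with Cd63, while Trem2 and Lgals3 stayed at 0.86. The mice come from 9 groups and both values of a point share a library.

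**Figure D5:**
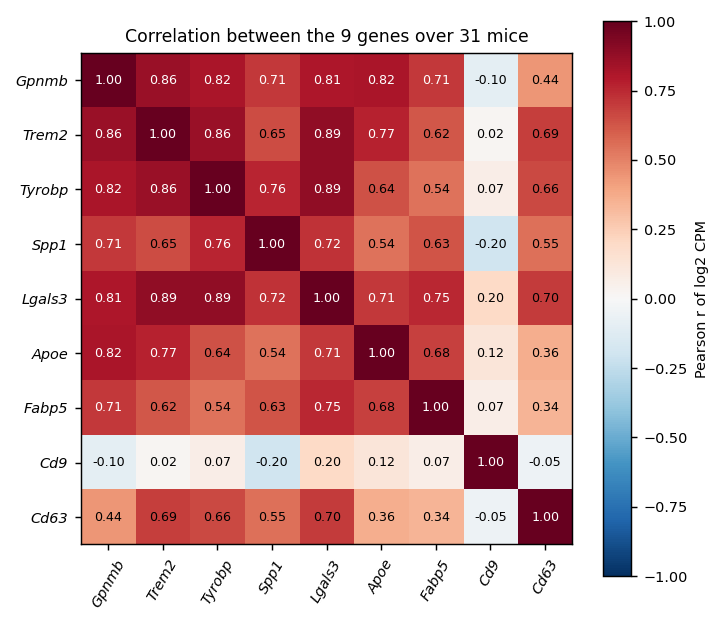
Pearson's r of log2 CPM over 31 mice for each pair of the 9 genes, from -1 (blue) to 1 (red). Gpnmb, Trem2, Tyrobp and Lgals3 have r of 0.81 to 0.89 with each other, and the row of Cd9 runs from -0.20 to 0.20.

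Among all 15526 genes compared, those most like each of the 9 genes by r over the 31 libraries fell into different kinds. For Tyrobp they were Nckap1l (0.973), Laptm5 (0.970) and Fcer1g (0.960), and for Lgals3 Ctss (0.950), Tlr13 (0.946) and C3ar1 (0.942), all genes of leukocytes. C3ar1 (0.930), Clec4a3 (0.929) and Unc93b1 (0.929) were nearest to Trem2, and Lyz2 (0.918), Lipa (0.910) and Efemp2 (0.896) to Gpnmb. Csrp2 (0.936) and Ppt1 (0.926) were among the nearest to Apoe, and Csrp2 had 54.4 to 100 CPM at 6d against 7.30 to 10.2 CPM in the Col vehicle mice.

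Among the genes most like Fabp5 were Sqle (0.876) and Cyp51 (0.866), enzymes of sterol synthesis. Without the 1C group, 0 of the 3 genes nearest to Fabp5 were found again, so this likeness depended on that group. The same count of 0 was found for Trem2 without the CFA vehicle group. It was also found for Lgals3 without the Col vehicle group and for Spp1 without the 2d group. Sqle had a median of 19.5 CPM (4.99 to 23.8) in 1C and 7.91 CPM (7.79 to 9.56) at 6d, against 5.08 to 6.01 CPM in the Col vehicle mice. The genes nearest to Cd9 were Barx2 (0.947), Cgnl1 (0.940) and Pitx1 (0.939), and Pitx1, a transcription factor of oral epithelium, had 15.6 to 25.9 CPM at 5d post-CFA and 1.40 to 2.08 CPM at 6d post-Col. For Spp1 they were Ubash3b (0.924), Me2 (0.924) and Dpysl3 (0.915), and for Cd63 Bax (0.943), Nfkb2 (0.938) and Fam105b (0.938), with 19.6 to 52.9 CPM of Bax at 2d post-Col and 14.9 to 24.8 CPM in the vehicle mice.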

How the data were processed

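Bulk poly(A) RNA of masseter muscle was sequenced as single-end reads of 50 bases, 1 library per mouse. The deposited files hold raw read counts per gene, which the authors made with bcl2fastq, TopHat2 and HTSeq on build mm9. Versions, and whether strand was used in counting, are not given in the sources used here. For the 10U groups the labels give days 2, 6 and 12 where the methods text gives days 1, 6 and 14, and the names of the labels are used. The 5 rows of each file that name no gene were left out of library sizes. Reads in no feature were 6.69 to 22.5% of a library's uniquely aligned reads.

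Groups came from the sample titles. Each comparison was fitted on its own groups with edgeR 4.0.16 in R 4.3.3 (TMM scaling, quasi-likelihood test, genes reaching 10 counts in 3 or more libraries, Benjamini-Hochberg adjustment over all genes tested, called under 0.05). CPM values are scaled by TMM over the 31 libraries. A count of 10 equals 0.344 to 0.674 CPM. RPKM values use the union of exons. A marker score is the mean log2 CPM of a list. Alternatives were DESeq2 1.42.0, its size factors, no filter on low counts, a fold of 2, an RPKM of 1, a fit shared by all groups, both vehicle groups as reference, a block for the replicate number, the omission of each mouse in turn, and, added after seeing the data, the salivary gland score as covariate. In a test on simulated counts for 6d post-Col (10U), 155 of 200 genes given a log2 change of 2 were recovered, among 166 calls of 14118 genes. Of these calls 11 were wrong. In the same test for 2d, 135 of 200 were recovered. In the data at 6d, 14% of genes were called higher and 13.3% lower, a larger share than was changed in the simulation. The share recovered therefore need not hold for the data.

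The members and lists were chosen with earlier results of these data known. Named were the 9 genes, the first 4 genes of each list, genes of lists with 5 or fewer calls and the 3 genes most like each member, of which some are not reported here. Cd163, Lipa and Msr1 were named after their values were seen. Mice of the same replicate number deviated alike (every r of deviations over 0.1) in 2 of 11 comparisons, CFA 1d against vehicle and vehicle against vehicle. Over 33 such pairs r ran from -0.391 to 0.677 with a mean of 0.063. The labels name no pairs, and these values do not show that mice were paired. No pair of the 31 libraries was identical.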

Additional observations from a re-analysis of the deposited data

Results flagged for a closer look

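In the 12d post-Col (10U) group, replicate 4 stood far above the other 3 mice for 5 genes. Its level was 16.02 CPM for Trem2, 42.18 CPM for Tyrobp, 356.1 CPM for Spp1, 49.1 CPM for Lgals3 and 1098 CPM for Apoe, and the gap to the next mouse took 0.948, 0.884, 0.879, 0.844 and 0.931 of the range of the group. In the 2d group, replicate 3 had the lowest Cd9 level, 78.02 CPM, with a gap of 0.842 of the range. By Dixon's test at the 95% level, 6 of 36 pairs of a gene and a group of 4 mice passed, where chance passes about 1 in 20 groups. The 5 genes of replicate 4 come from 1 library and are not independent.

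The effect of 10U Col at 6d differed from that of CFA at 5d for Apoe by 2.16, for Fabp5 by 2.32 and for Cd9 by -1.67 on the log2 scale, by the interaction term of edgeR's quasi-likelihood test (adjusted p = 0.0202, 0.02 and 0.0151), among 18 comparisons of effects.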

How the results depend on the processing

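The numbers of the 9 genes called are given for each alternative that moved them. The share of all genes called in the same setting is not given beside these counts or those with a mouse left out. The fit with the salivary score at 6d, described above, is the exception. A change in a count is therefore not shown to be particular to the 9 genes. With DESeq2, 4 were called for CFA 5d, 4 for 1C, 6 for 2d, 4 for 6d against 2d, 8 for 12d against 6d, 1 for the early and 5 for the later difference between Col and CFA. With 1 fit of all groups, 1 was called for 1C, 4 for 2d, 7 for 6d (without Spp1, adjusted p = 0.0798), 7 for 12d against 6d, 1 for CFA 5d against 1d and 2 for the later difference (without Fabp5, adjusted p = 0.0664). With DESeq2 size factors in edgeR, and with no filter on low counts, 4 were called for 12d against 6d (without Apoe, adjusted p = 0.0502 and 0.0513). With both vehicle groups as reference, 3 were called for 1C and 6 for 2d. With the salivary gland score as covariate, 1 was called for CFA 5d, 1 for CFA 5d against 1d, and 0 for 2d, 6d, 6d against 2d, 12d against 6d and the later difference. In that fit Cd9 at 6d turned from -0.56 to 0.13 and Trem2 at 12d against 6d from -2.72 to 0.31, and the cause was not tested. With the replicate block, 7 were called for 2d, 6 for 6d, 8 for 12d against 6d, 3 for 6d against 2d, 3 for CFA 5d against 1d, 1 for the early and 4 for the later difference, and 0 elsewhere. The mice of a block are known to share only a number. In the 2 comparisons with every r of deviations over 0.1 the block changed no call.

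With each mouse left out in turn, 0 to 4 genes were called for CFA 5d, 0 to 1 for 1C, 0 to 6 for 2d, 6 to 8 for 6d, 1 to 4 for CFA 5d against 1d, 0 to 4 for 6d against 2d, 1 to 8 for 12d against 6d and 1 to 6 for the later difference, and 0 in the other comparisons. Of the 27 genes most like the members, 15 were found again without 1C, 15 without 2d and 17 without 6d. With 3 or 4 mice a group, a gene that misses the threshold is not shown to be equal.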
